A study of Mus musculus with 6 samples.

Results

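Interleukin-6 and oncostatin M signaling was followed through 9 of the 32285 genes counted. The genes were picked by symbol: the ligands Il6, Osm, Lif and Il11, the receptor chains Il6ra, Osmr, Lifr and Il6st, and the feedback inhibitor Socs3. For each one, the UMIs (unique molecular identifiers, each standing for 1 captured RNA molecule) were summed over the cells of a type in a library. The data are single-cell 10x 3' libraries of live cells sorted from digested ventricles after cardiomyocytes had been filtered out. All mice were male and 8 to 12 weeks old. Wild-type (WT) mice were C57BL/6JRj, and knockout (KO) mice carried the allele B6.Cg-Trpm4tm1.2-PG, in which the calcium-activated cation channel gene Trpm4 is disrupted. All mice had surgery. Either a sham operation was followed for 24 h, or the left anterior descending coronary artery was ligated to cause an infarct, with sampling at 24 h or 72 h. Each of the 6 combinations of genotype and condition is 1 library made from the pooled cells of 4 mice, so no difference has a replicate check and differences are given as values without a test. All intervals are 95% intervals of the counting error alone.

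The cytokines of this family act through a shared signal-transducing receptor chain, encoded by Il6st. Interleukin-6 and interleukin-11 first bind a receptor of their own (Il6ra for interleukin-6), whereas oncostatin M and leukemia inhibitory factor join Il6st to Osmr or Lifr. The assembled receptors activate Janus kinases and the transcription factor STAT3, which induces Socs3, and the SOCS3 protein in turn blocks signaling at Il6st. Cells without Il6ra can still respond to interleukin-6 when soluble receptor, shed from other cells, carries it to Il6st. In the infarcted heart these cytokines are known as products of infiltrating leukocytes and injured stroma that act on cardiomyocytes, fibroblasts and vessels.

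The 6 libraries held between 3625 and 7286 deposited cells, 34940 in all, and 32030 were kept. The median UMI count per kept cell ran from 1351 in the KO library at 72 h to 8008 in the WT library at 72 h, and each library shared 26 to 48 of its cell barcodes with others. Clustering gave 32 clusters, of which 29 could be named from marker genes. The names describe cells that are like the type named. Leukocytes numbered 16996 cells and stromal cells 12021, and 351 cells of a cardiomyocyte-like cluster remained despite the mesh and sort. The KO library at 72 h stood apart. It supplied 1495 of the 1650 cells of 1 macrophage cluster, 1226 of the 1358 cells of the fibroblast cluster led by Cthrc1 and Col1a1, and 371 of the 392 cells of a smooth muscle cluster, so library and cell state cannot be told apart there. Neutrophil RNA was also found in its other cells: the 12 neutrophil markers together reached 4278 CPM in its endothelial cells, against 194 in WT. CPM is the gene's UMIs scaled to the usual common total of the class, and each library's cells of a class are summed first. As a check of the labels, Trpm4 stood at 8.38, 5.81, 5.48, 3.40, 4.24 and 2.56 CPM over all kept cells, in the order WT sham, KO sham, WT ligation 24 h, KO ligation 24 h, WT ligation 72 h and KO ligation 72 h. The KO value was below the WT value in each condition but never 0. The place of these 3' tags relative to the deleted part of the gene is not given in the sources used here, so they check little. All lists of 6 values below keep this order.

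The upstream sequences of the inducible genes are shown because Il6, Lif and Il11 were found in the same small cluster after ligation and Socs3 is the feedback gene of the pathway. RefSeq upstream windows on GRCm38.p6 were at hand for 8 of the 9 genes (all but Osm). The 250 bases before each start were searched on both strands for the STAT motif TTCNNNGAA, the AP-1 motif TGANTCA, the C/EBP motif TTGCNNAA and the kappa-B motif. Of 32851 such windows, 7.02%, 6.75%, 9.56% and 1.41% hold these motifs. Capitals mark the matches. Positions count back from the start, with -1 the base before it. The Il6 window (chr5:30012864-30013113, plus strand, intergenic and directly upstream of the first exon) holds AP-1 at -249 to -243, C/EBP read on the other strand at -128 to -121 and kappa-B at -44 to -35. The Lif site (chr11:4257330-4257356, plus strand, intergenic, between Osm and Lif) holds AP-1 at -228 to -222, and the Il11 site (chr7:4778223-4778249, minus strand) holds AP-1 at -98 to -92. The Il11 site lies upstream of the shorter GENCODE transcripts and in an intron of the longer ones. The Socs3 site (chr11:117969502-117969530, minus strand) holds a STAT match at -154 to -146 and lies in an intron of a longer non-coding transcript of the gene. The 4 sequences, 5′ to 3′, are:
Il6: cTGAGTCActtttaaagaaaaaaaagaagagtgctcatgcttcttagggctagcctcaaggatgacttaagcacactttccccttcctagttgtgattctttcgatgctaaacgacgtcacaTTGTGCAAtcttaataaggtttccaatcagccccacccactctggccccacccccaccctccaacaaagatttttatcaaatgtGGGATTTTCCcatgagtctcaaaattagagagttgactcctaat
Lif: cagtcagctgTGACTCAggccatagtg
Il11: ggagggagggTGAGTCAggatgtgtca
Socs3: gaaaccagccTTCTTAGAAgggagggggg
Il11 has 2 windows in the table, and none of the 4 motifs was found in its other one, or in those of Il6ra, Osmr, Lifr or Il6st. A match is a run of letters and says nothing of binding, and a window without one says nothing of the factor.

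In GENCODE M21 (GRCm38), Osm (chr11:4236420-4241026, plus strand) and Lif (chr11:4257557-4272514, plus strand) are neighbours, 16.5 kb apart, and Osmr (chr15:6813577-6874969, minus strand) and Lifr (chr15:7090614-7197489, plus strand) lie 216 kb apart. The other genes lie alone: Il6 at chr5:30013114-30019981 (plus), Il11 at chr7:4772373-4782859 (minus), Il6ra at chr3:89864059-89913196 (minus), Il6st at chr13:112464070-112510086 (plus) and Socs3 at chr11:117966079-117970047 (minus). The gene spans hold exons and introns, and 3' tags come mostly from the last exons.

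**Figure D1:**
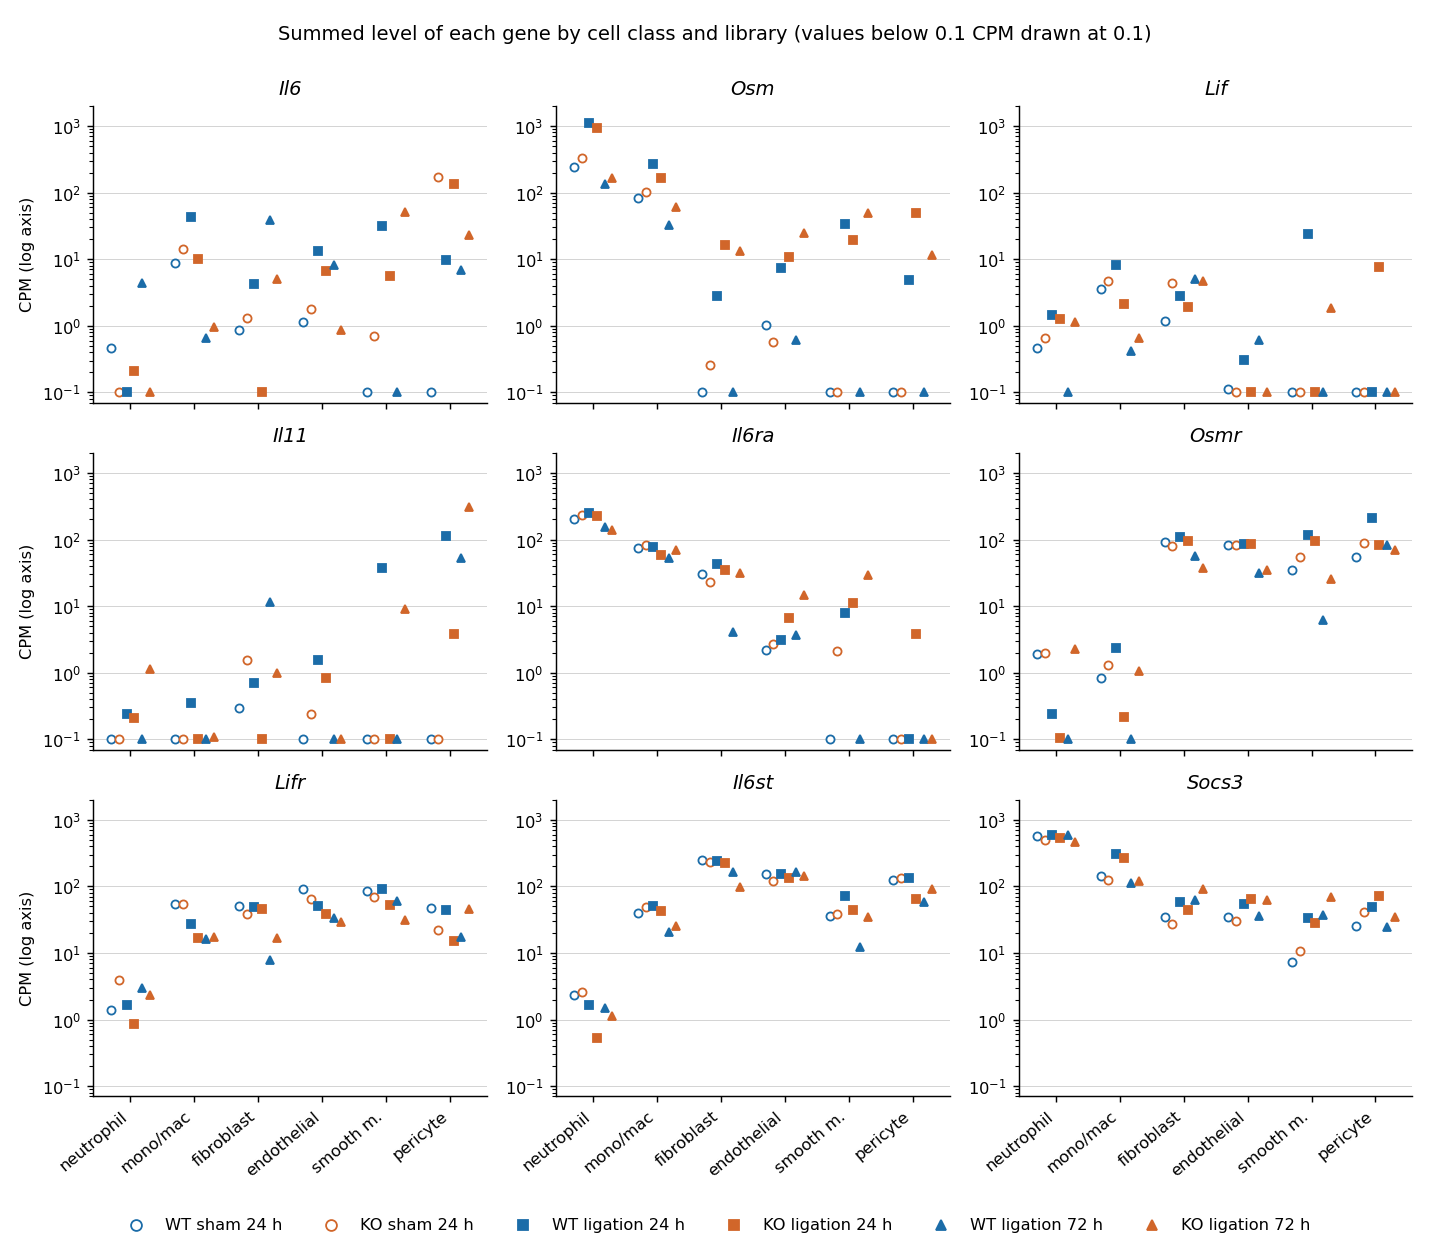
Summed level of each of the 9 genes (CPM, log axis) in 6 cell classes, with 1 point per library; blue is WT, orange KO, open circles sham, squares ligation 24 h and triangles ligation 72 h, and values below 0.1 CPM are drawn at 0.1. Osm, Il6ra and Socs3 are highest in neutrophils, and Osmr and Il6st are highest in stromal classes. Pericytes number under 100 cells in each library, and smooth muscle cells do in both 24 h libraries and in WT at 72 h.

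Osm, the oncostatin M gene, gave 25102 UMIs in all, against 1525 for Il6, 568 for Il11 and 409 for Lif, numbers that set the counting error of each gene and are no comparison of abundance between genes. Of the Osm UMIs, 94.1% lay in leukocytes. In neutrophils its level was 242, 333, 1129, 946, 136 and 164 CPM, from 516, 511, 4701, 8927, 278 and 143 UMIs. Both libraries taken 24 h after ligation stood above the other 4, and the 72 h libraries were the lowest. Ligation 24 h over sham gave a log2 ratio of 2.22 (2.09 to 2.35) in WT and 1.505 (1.38 to 1.64) in KO, and that of 72 h over 24 h was -3.05 (-3.23 to -2.88) and -2.52 (-2.77 to -2.29). Osm was the only 1 of the 3 genes measured in neutrophils (at least 50 UMIs over the pair of libraries) that was at least 2-fold higher at 24 h, where 5.07% of all measured genes in WT and 2.75% in KO were that much higher. From 24 h to 72 h it was the only 1 of the 3 at least 2-fold lower, beside 6.89% and 5.66% of all genes. The median gene moved too in neutrophils, by -0.23 and -0.19 on the log2 scale from sham to 24 h and by 0.55 and 0.52 from 24 h to 72 h, so relative to it the 24 h ratios were larger, and the falls to 72 h were larger as well.

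Neutrophils were not uniform in Osm. In the cluster led by Retnlg and S100a9, its level was 336, 411, 1049, 873, 489 and 779 CPM. In the cluster led by Tnf and Ccrl2 it was 245, 331, 1173, 1114, 119 and 141 CPM, and in the cluster led by interferon-induced genes such as Ifit1 it was 289, 325, 1411, 991, 247 and 88.3 CPM. The cluster led by Siglecf and Cxcr4 was lower, at 103, 213, 234, 564, 61.0 and 87.4 CPM. In all 4 clusters both 24 h libraries exceeded the sham library of their genotype. The Retnlg cluster kept more Osm at 72 h than the others, above its own sham value in both genotypes. It had 385 of 1146 neutrophils in WT at 24 h and 68 of 940 at 72 h, and 1666 of 3387 and 34 of 433 in KO, while the Siglecf cluster went from 41 to 568 cells in WT and held 297 and 265 in KO, so different clusters hold the class at 24 h and 72 h. The share of neutrophils with an Osm UMI, after thinning each cell to 1000 UMIs, was 13.02, 18.0, 46.1, 39.6, 6.74 and 8.54%. Cells with under 1000 UMIs are left out of all thinned shares. Without thinning it was 23.2, 29.2, 68.5, 56.2, 10.7 and 14.55%, at median depths between 1974 and 3162 UMIs. In endothelial cells, which served as the class that should lack Osm, the thinned share was between 0 and 2.19%, and the unthinned share reached 4.19% at median depths between 1147 and 3665 UMIs.

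**Figure D2:**
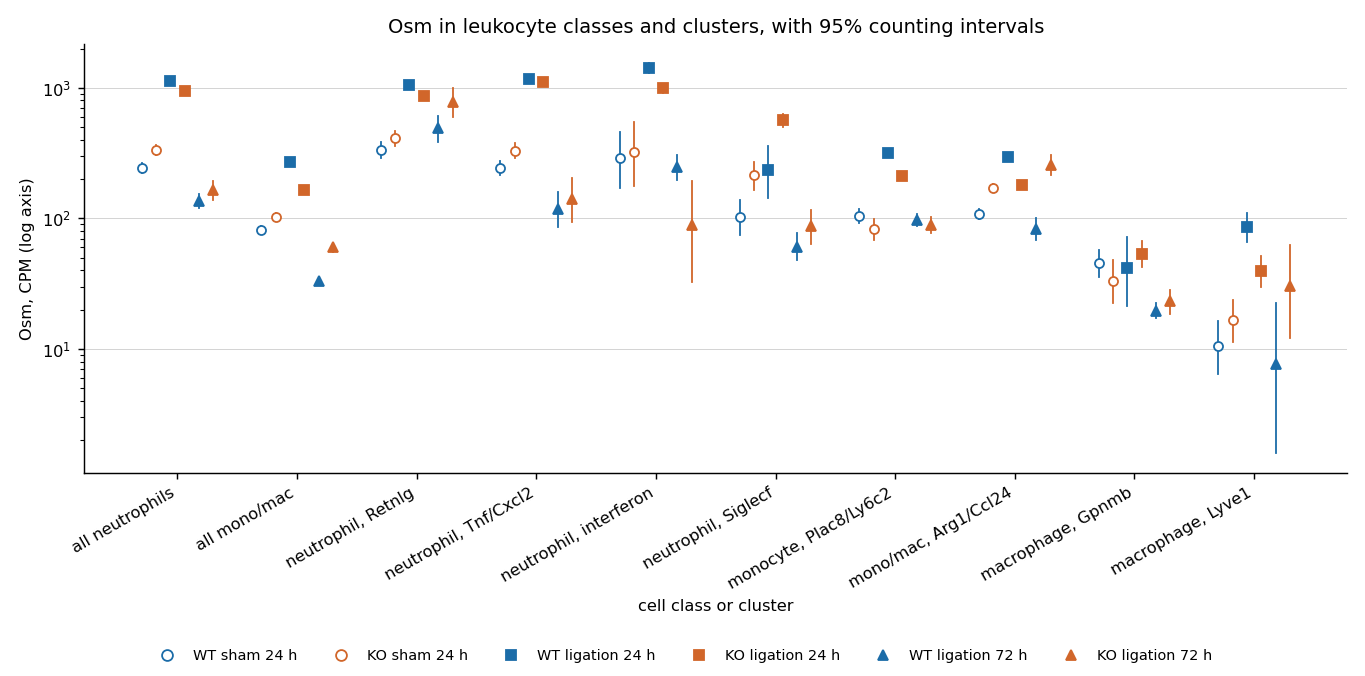
Osm level (CPM, log axis) in all neutrophils, all monocyte/macrophage cells and 8 of their clusters, with 1 point per library and 95% counting intervals as vertical lines; blue is WT, orange KO, open circles sham, squares ligation 24 h and triangles ligation 72 h. Across both classes and most clusters the squares lie highest; in neutrophils they reach 1129 and 946 CPM.

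Osm in monocyte/macrophage cells was 81.6, 103, 268, 166, 33.0 and 59.9 CPM. As in neutrophils, the 24 h libraries were the highest of each genotype and the 72 h libraries the lowest. On the log2 scale 24 h over sham was 1.72 (1.60 to 1.83) in WT and 0.70 (0.59 to 0.81) in KO. The KO library at 24 h had less Osm than the WT library, with a log2 ratio of -0.69 (-0.77 to -0.61), and at sham and 72 h it had more, with 0.33 (0.19 to 0.47) and 0.86 (0.70 to 1.02). In neutrophils the KO over WT ratios had the same signs, at 0.46 (0.28 to 0.64) at sham, -0.25 (-0.31 to -0.20) at 24 h and 0.27 (-0.03 to 0.57) at 72 h, the last within counting error. None of these genotype ratios reached 2-fold. The 12 neutrophil markers summed to 657, 717, 2578, 2525, 489 and 2385 CPM in monocyte/macrophage cells against 128064, 124610, 151549, 177906, 74367 and 69700.3 in neutrophils, and their part in the monocyte/macrophage values was not tested.

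Among the monocyte/macrophage clusters, Osm was 104, 83.0, 315, 212, 97.8 and 89.5 CPM in the monocytes led by Plac8 and Chil3. It was 108, 172, 293, 179, 83.6 and 258 CPM in the cluster led by Ccl24 and Arg1, where 41 of the 132 UMIs of the last library came from 1 of its 162 cells. The macrophages led by Gpnmb and Trem2 had less, at 45.4, 33.4, 41.4, 53.6, 19.6 and 23.2 CPM. The resident-like macrophages led by Lyve1 and Cbr2 had 10.6, 16.8, 85.9, 39.5, 7.75 and 30.4 CPM, so there too the 24 h libraries were the highest. An unnamed cluster led by Cd209a and MHC class II genes held 59.4, 62.3, 86.3, 151, 19.7 and 38.3 CPM.

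In fibroblasts and endothelial cells Osm was low. It was 0, 0.258, 2.83, 16.0, 0 and 13.2 CPM in fibroblasts and 1.02, 0.561, 7.46, 10.8, 0.618 and 24.9 CPM in endothelial cells. Osm was not low in the platelet class, which belongs to neither leukocytes nor stroma here. Its 217 WT and 100 KO cells at 24 h held 1.83 and 1.35% of all Osm UMIs. The 12 neutrophil markers summed there to 81802 and 121316 CPM. In 1 of its clusters, with 41 and 54 cells at 24 h, they reached 146497 and 147782 CPM, against 151549 and 177906 in neutrophils. The part of neutrophil RNA in the Osm of the platelet class was not tested. Suppose every S100a8 and S100a9 UMI in a class came with Osm in the ratio found in that library's neutrophils. At 24 h the KO endothelial cells would then hold 38.1 Osm UMIs, and 26 were counted. WT endothelial cells would hold 8.36, and 24 were counted. Fibroblasts of 24 h would hold 2.62 in WT and 7.28 in KO, against 4 and 17 counted. At 72 h KO fibroblasts and endothelial cells would hold 18.6 and 12.5, against 40 and 29 counted. In WT at 72 h these were 0.957 and 0.387, against 0 and 1 counted. The KO fibroblasts of 72 h had neutrophil markers at 2782 CPM and the 33 monocyte/macrophage markers at 19662 CPM (WT 246 and 3725). In the KO endothelial cells of 72 h the same markers stood at 4278 and 7782 CPM, and the part of either in the Osm values was not tested. The share of all Osm UMIs that lay in neutrophils was 33.4, 35.2, 64.3, 70.8, 22.3 and 15.3%, and that of monocyte/macrophage cells was 57.2, 59.7, 31.8, 24.2, 64.2 and 59.9%. Over all kept cells Osm stood at 50.8, 47.1, 337, 343, 29.02 and 46.0 CPM, a value that mixes the number of neutrophils with the level per cell.

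Il6, the interleukin-6 gene, was held mostly by monocyte/macrophage cells at sham and 24 h, where they had 70.1, 58.5, 63.9 and 53.9% of its UMIs. Its level in them was 8.88, 14.2, 43.6, 10.2, 0.659 and 0.965 CPM, from 96, 120, 378, 187, 16 and 9 UMIs in 39, 49, 109, 102, 13 and 9 cells. The WT library at 24 h stood above the other 5, and both 72 h libraries were near 0. From sham to 24 h the log2 ratio was 2.30 (1.97 to 2.64) in WT and -0.48 (-0.82 to -0.14) in KO, and KO over WT at 24 h was -2.10 (-2.36 to -1.84). From 24 h to 72 h the log2 ratio was -6.05 (-6.87 to -5.33) in WT and -3.40 (-4.55 to -2.45) in KO. Different clusters hold the class at these times: the cluster led by Ccl24 and Arg1 had 325 of 682 cells in WT at 24 h and 202 of 1940 at 72 h, and 672 of 1475 and 162 of 2618 in KO. At 72 h the largest were the Gpnmb cluster (704 cells) in WT and the cluster led by Mpeg1 and Ms4a7 (1495 cells) in KO. Within the Ccl24 and Arg1 cluster the ratio was -2.98 (-4.06 to -2.08) in WT and -2.24 (-5.30 to -0.37) in KO, the latter from 2 UMIs at 72 h. Thinned to 1000 UMIs, the share of these cells with an Il6 UMI was 0.787, 0.883, 3.10, 0.819, 0 and 0.126%, against unthinned shares of 3.76, 6.13, 16.0, 6.92, 0.670 and 0.344%. Neutrophils, which served as the class with little Il6, had unthinned shares of 0.114, 0, 0, 0.0590, 0.106 and 0% at the depths given above, while the median depth of monocyte/macrophage cells ran from 1286 to 11511 UMIs.

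The Il6 of this class was spread over several clusters. The Ccl24 and Arg1 cluster had 20.7, 26.5, 60.6, 18.5, 7.67 and 3.90 CPM. The resident-like Lyve1 cluster had 0, 1.62, 92.4, 0.731, 0 and 4.34 CPM, and its 24 h value in WT rested on 71 UMIs from 8 of 66 cells, with 24 in 1 cell. In WT at 24 h, 4 of the 7 genes measured in monocyte/macrophage cells (Il6, Osm, Lif and Socs3) were at least 2-fold higher than at sham, beside 2.69% of all measured genes. In KO 1 of 7 (Socs3) was at least 2-fold higher, beside 1.7% of all genes, and 2 (Lif and Lifr) at least 2-fold lower, beside 6.5%. Between genotypes at 24 h, 2 of 7 (Il6 and Lif) were at least 2-fold lower in KO, beside 1.55% of all genes. From 24 h to 72 h, 5 of 7 in WT (Il6, Osm, Lif, Il6st and Socs3) and 3 of 6 in KO (Il6, Osm and Socs3) were at least 2-fold lower, beside 8.05% and 3.02% of all genes. At sham none of the 5 genes measured in endothelial cells, 5 in fibroblasts, 7 in monocyte/macrophage cells and 3 in neutrophils differed 2-fold between genotypes, where 1.49% of measured genes in endothelial cells, 1.64% in fibroblasts, 1.61% in monocyte/macrophage cells and 1.1% in neutrophils did. Nor did any of the 6, 5 and 3 genes measured at 24 h in endothelial cells, fibroblasts and neutrophils, beside 2.41%, 2.85% and 3.24% of all measured genes, or of the 4, 5 and 3 at 72 h in endothelial cells, monocyte/macrophage cells and neutrophils, beside 4.33%, 3.54% and 1.55%. Genes with under 50 UMIs over the pair are outside these counts, and some of them differed more, such as Lif in fibroblasts at sham and Osm, Il6 and Il6ra in endothelial cells at 72 h, whose values are given with each gene.

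Neutrophils held almost no Il6, at 0.470, 0, 0, 0.212, 4.41 and 0 CPM, and the 9 UMIs of the WT library at 72 h were all in 1 cell. Endothelial cells had 1.14, 1.76, 13.1, 6.67, 8.03 and 0.858 CPM. There the WT library at 24 h was again the highest, with a log2 ratio over sham of 3.52 (2.505 to 4.68); Il6 was the only 1 of the 5 genes measured in endothelial cells at least 2-fold higher in WT, beside 3.62% of all genes. In KO the endothelial pair held too few Il6 UMIs for a ratio, but its 24 h value was also above sham (6.67 against 1.76 CPM). The endothelial cluster led by Apln and Pgf had 4.00, 16.0, 37.8, 16.9, 4.98 and 0 CPM. The WT library at 24 h was thus the highest in macrophages and in endothelial cells, and the KO library at 24 h was below it in both. Compared with its own sham, the KO library at 24 h was lower in macrophages and higher in endothelial cells.

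In fibroblasts, Il6 was 0.876, 1.29, 4.25, 0, 38.8 and 4.96 CPM. The single high value, in WT at 72 h, came from 123 UMIs in 26 cells of the Cthrc1 and Col1a1 cluster, with 52 in 1 cell. It gave a log2 ratio of 3.19 (2.03 to 4.66) over WT at 24 h, and KO over WT at 72 h was -2.97 (-3.85 to -2.19). The fibroblasts at 24 h were mostly of the cluster led by Clec3b and Dcn and those at 72 h mostly of the Cthrc1 cluster, so different clusters hold the class at the 2 times. Where the unnamed cells led by Cxcl5 and Ptx3 were counted as fibroblasts, the WT ratio of 72 h over 24 h turned to -0.63. Pericytes and smooth muscle cells, in most libraries too few for a ratio, held Il6 in few cells: 47 UMIs of the KO sham pericytes came from 1 cell, whereas 36 UMIs at KO ligation 24 h came from 9 of 85 cells. In smooth muscle, 28 UMIs of the KO library at 72 h came from 22 cells.

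Lif, the gene of leukemia inhibitory factor, followed Il6 in monocyte/macrophage cells, with 3.51, 4.62, 8.31, 2.13, 0.412 and 0.643 CPM. Here too the WT library at 24 h was the highest and the 72 h libraries the lowest. Its 24 h over sham log2 ratio was 1.24 (0.66 to 1.85) in WT and -1.12 (-1.80 to -0.44) in KO, and KO over WT at 24 h was -1.96 (-2.57 to -1.38). Its levels in the Ccl24 and Arg1 cluster were 7.21, 9.44, 12.3, 2.78, 3.84 and 1.95 CPM. In fibroblasts Lif was 1.17, 4.38, 2.83, 1.89, 5.04 and 4.63 CPM, lowest in WT at sham. The KO sham value was above it, from under 50 UMIs over the pair. In neutrophils, it was at most 1.44 CPM.

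Il11, the interleukin-11 gene, was at or near 0 in leukocytes, with between 0 and 0.295 CPM. Most of it, 71.7% of 568 UMIs, lay in unnamed clusters, and nearly all of that in a cluster of 183 cells led by Cxcl5 and Ptx3. Elsewhere single cells gave much of it in some classes: 31 of the 36 UMIs of WT fibroblasts at 72 h, 22 of the 23 UMIs of WT pericytes at 24 h, and all 27 of KO pericytes at 72 h were in 1 cell each.

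The Cxcl5 and Ptx3 cluster held 14, 28, 57, 75, 4 and 5 cells in the 6 libraries. It expressed Il11 at 33.8, 8.29, 217, 100.1, 0 and 0 CPM, Il6 at 30.1, 6.63, 129, 70.3, 0 and 0 CPM and Lif at 0, 1.66, 36.0, 40.5, 0 and 0 CPM. For each ligand both 24 h libraries exceeded the sham library of their genotype. A few cells carried most of the UMIs. In WT at 24 h, 144 Il6 UMIs came from 15 of 57 cells (68 in 1), 40 Lif UMIs from 8 cells (22 in 1) and 241 Il11 UMIs from 8 cells (70 in 1). In KO at 24 h, 99 Il6 UMIs came from 18 of 75 cells (54 in 1), 57 Lif UMIs from 22 cells (15 in 1) and 141 Il11 UMIs from 12 cells (101 in 1). At least 1 of the 3 ligands was detected in 25 WT and 39 KO cells, all 3 together in none. All 20 fibroblast markers were present in it at sham and 24 h, at summed levels between 6682 and 10443 CPM, against 49527, 52609.9, 49929.5 and 49546 CPM in fibroblasts of the same 4 libraries. It rested on too few leading markers to be named. With a coarser clustering, without doublet removal or with the 9 genes among the clustering genes, all 183 cells fell among fibroblasts. The receptors were also detected in it: Osmr at 56.4, 91.2, 109.7 and 93.0 CPM and Il6st at 132, 162, 114 and 94.4 CPM in the sham and 24 h libraries, with Il6ra at no more than 14.9 CPM in them.

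**Figure D3:**
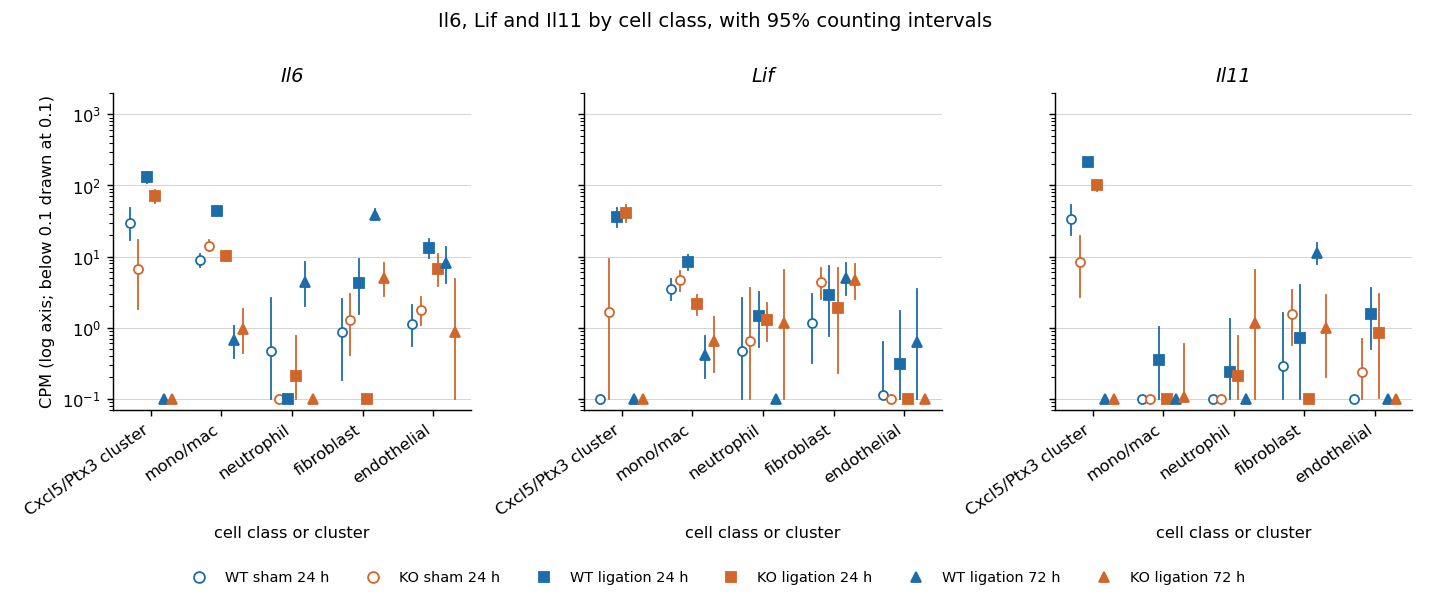
Levels of Il6, Lif and Il11 (CPM, log axis, below 0.1 drawn at 0.1) in the cluster led by Cxcl5 and Ptx3 and in 4 classes, with 1 point per library and 95% counting intervals; blue is WT, orange KO, open circles sham, squares ligation 24 h and triangles ligation 72 h. In the Cxcl5 and Ptx3 cluster the 24 h libraries lie highest for all 3 genes (Il11 at 217 and 100.1 CPM), and in monocyte/macrophage cells the WT library at 24 h lies highest for Il6 and Lif.

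Of the receptors, Il6ra, which binds interleukin-6 itself, lay mostly in leukocytes, with 85.6% of 11264 UMIs. It was 204, 233, 249.9, 222, 152 and 139 CPM in neutrophils and 73.9, 83.2, 78.4, 58.6, 53.6 and 68.5 CPM in monocyte/macrophage cells. The 72 h libraries were the lowest in neutrophils, with log2 ratios of 72 h over 24 h of -0.72 (-0.91 to -0.53) in WT and -0.68 (-0.95 to -0.41) in KO, and 24 h over sham was 0.29 (0.13 to 0.46) in WT and -0.07 (-0.23 to 0.10) in KO. The Siglecf cluster, lowest in Osm at sham and 24 h, had the most Il6ra of the 4 neutrophil clusters in 5 of 6 libraries, at 303, 277, 323, 319, 157 and 163 CPM. In monocyte/macrophage cells, 24 h over sham was 0.09 (-0.06 to 0.23) in WT and -0.51 (-0.64 to -0.37) in KO.

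Fibroblasts also held Il6ra, at 30.4, 22.9, 42.5, 34.9, 4.10 and 31.7 CPM, with WT at 72 h far below the rest. Within the Clec3b and Dcn cluster the values were 31.2, 22.6, 42.8, 37.2, 31.7 and 52.5 CPM, and in the Cthrc1 cluster at 72 h they were 0.708 in WT and 30.3 in KO, so the low class value at 72 h in WT lay in the Cthrc1 cluster. The Clec3b and Dcn cluster held 45 WT and 29 KO cells at 72 h. At 72 h the neutrophil markers together held 246 CPM in fibroblasts of the WT library and 2782 CPM in those of the KO library. The 33 monocyte/macrophage markers, all above 0 in the KO fibroblasts, summed to 4623, 5930.1, 4835, 4286, 3725 and 19662 CPM in the fibroblasts of the 6 libraries, against 49810.4 CPM in the KO monocyte/macrophage cells of 72 h. Their part in the Il6ra values was not tested. Endothelial cells had little Il6ra, at 2.16, 2.72, 3.11, 6.67, 3.71 and 14.6 CPM, and the higher KO values at 24 h and 72 h moved with neutrophil marker sums of 3030.4 and 4278 CPM there. In KO endothelial cells, 2 of 5 measured genes (Il6ra and Socs3) were at least 2-fold higher at 24 h than at sham, beside 3.78% of all genes. By free RNA in that ratio 8.96 Il6ra UMIs would be present, and 16 were counted. With at most 10% mitochondrial UMIs allowed per cell, the KO ratio of Il6ra turned to -0.09.

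Osmr, the chain that makes the oncostatin M receptor with Il6st, was the reverse of Osm in its place. It was at most 2.30 CPM in neutrophils and 2.31 CPM in monocyte/macrophage cells, and 1.58% of its 4562 UMIs lay in leukocytes. Endothelial cells had 83.2, 81.8, 86.4, 85.1, 31.5 and 35.2 CPM and fibroblasts 91.4, 79.6, 108, 94.4, 56.1 and 37.4 CPM. In both classes the sham and 24 h libraries lay close together and both 72 h libraries were the lowest. The log2 ratio of 24 h over sham in endothelial cells was 0.05 (-0.15 to 0.26) in WT and 0.06 (-0.17 to 0.27) in KO, and that of 72 h over 24 h was -1.45 (-1.91 to -1.02) and -1.27 (-1.79 to -0.78). Osmr was the only 1 of 5 measured genes at least 2-fold lower there at 72 h, beside 8.47% of all genes in WT and 6.59% in KO. In KO, Osm was that much higher there at 72 h, beside 4.24% of all genes, a direction that turned (log2 ratio -0.61) when no doublets were removed.

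Different clusters hold the endothelial class at 24 h and 72 h. In KO the cluster led by Rflnb and Fabp4 had 124 of 764 cells at 24 h and 444 of 620 at 72 h, that led by Aqp1 and Timp4 248 and 43, and that led by Rbp7 and Btnl9 204 and 32. In WT these 3 clusters had 115, 200 and 208 of 733 cells at 24 h and 32, 61 and 49 of 253 at 72 h. Osmr in the Aqp1 and Timp4 cluster was 71.2, 70.6, 77.4, 67.7, 63.7 and 86.6 CPM and in the Rbp7 and Btnl9 cluster 113, 110.4, 114, 145, 111 and 93.5 CPM, with the 72 h libraries within or near the range of the others. In the Rflnb and Fabp4 cluster it was 52.7, 53.9, 38.9, 35.2, 10.2 and 20.6 CPM, and in the Apln and Pgf cluster 50.6, 53.1, 73.5, 62.5, 20.9 and 34.8 CPM. In fibroblasts, the Clec3b and Dcn cluster had 91.3, 79.8, 106, 98.2, 80.6 and 126 CPM, while the Cthrc1 cluster at 72 h had 53.1 CPM in WT and 31.4 in KO. The Clec3b and Dcn values of 72 h rest on 45 WT and 29 KO cells. The lower class values at 72 h thus went with cells of the Cthrc1 cluster, which the 24 h libraries hardly held. Pericytes, with under 100 cells a library, had 54.1, 88.9, 214, 82.8, 83.2 and 69.3 CPM, and smooth muscle cells 34.6, 55.6, 117, 95.02, 6.10 and 25.7 CPM. Smooth muscle cells numbered 159, 224, 53, 64, 31 and 386. Of the 386 KO cells at 72 h, 371 belonged to the cluster found mostly in that library.

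Lifr, the receptor chain for leukemia inhibitory factor, was present in stroma and in monocyte/macrophage cells. In endothelial cells it was 90.5, 65.1, 50.03, 38.8, 34.0 and 29.2 CPM, and both ligation times lay below sham in each genotype. The log2 ratio of 24 h over sham there was -0.85 (-1.11 to -0.61) in WT and -0.75 (-1.07 to -0.44) in KO, short of 2-fold. The endothelial cluster led by Cytl1, Vwf and Npr3 had 171, 121, 66.1, 116, 55.5 and 14.6 CPM, the most of the endothelial clusters at sham. In fibroblasts Lifr was 50.2, 38.1, 49.6, 46.2, 7.88 and 16.5 CPM, in smooth muscle cells 86.6, 69.8, 93.0, 53.1, 61.0 and 31.2 CPM and in neutrophils at most 3.91 CPM. Smooth muscle had under 100 cells in both 24 h libraries and in WT at 72 h.

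Lifr in monocyte/macrophage cells was 54.0, 54.9, 27.7, 17.0, 16.1 and 17.3 CPM, with both sham libraries above the other 4. The 24 h over sham log2 ratio was -0.96 (-1.19 to -0.74) in WT and -1.69 (-1.90 to -1.48) in KO, while the median gene of the class moved by -0.11 and -0.27. It was highest in the resident-like Lyve1 cluster, at 227, 179, 119.8, 86.2, 116 and 86.8 CPM, against 18.4, 16.7, 16.5, 14.3, 13.1 and 10.96 CPM in the Plac8 monocytes and 18.9, 23.0, 20.8, 10.9, 32.2 and 23.4 CPM in the Ccl24 and Arg1 cluster. The Lyve1 cluster held 223, 219, 66, 108, 42 and 45 cells, and within it the value was lower at 24 h than at sham in both genotypes.

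Il6st, the shared signal-transducing chain, was highest in stroma and present in all main classes except neutrophils, where it was 2.35, 2.61, 1.68, 0.530, 1.47 and 1.15 CPM. Endothelial cells had 153, 121, 152, 135, 164 and 145 CPM. The 24 h over sham log2 ratio there was -0.004 (-0.16 to 0.15) in WT and 0.15 (-0.02 to 0.33) in KO, so no difference was detectable in WT. The Cytl1 and Vwf cluster had the most of the endothelial clusters, at 762, 560.2, 751, 556, 705 and 613 CPM. Lymphatic endothelial cells had 493, 497, 326, 190.4, 173 and 96.8 CPM, highest at sham and lowest at 72 h in each genotype. These values rest on 39, 26, 17, 16, 16 and 113 cells, too few for a ratio. The KO cells of 72 h had a median of 1290 UMIs.

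Fibroblasts had Il6st at 248, 232, 245, 225, 164 and 97.8 CPM, with 24 h over sham at -0.01 (-0.20 to 0.17) in WT and -0.05 (-0.26 to 0.16) in KO. At 72 h both libraries were lower, but within the Clec3b and Dcn cluster they were not, at 251, 232, 233, 242, 251 and 263 CPM. The 72 h values of that cluster rest on 45 WT and 29 KO cells. The Cthrc1 cluster had 153 CPM in WT and 86.8 in KO at 72 h. Il6st in monocyte/macrophage cells was 40.0, 49.1, 51.6, 42.1, 20.4 and 25.8 CPM, and 24 h over sham was 0.37 (0.17 to 0.56) in WT and -0.22 (-0.39 to -0.04) in KO, the latter turning to 0.05 relative to the median gene. Neutrophils thus had Il6ra and Socs3 with little Il6st.

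In fibroblasts none of the 5 measured genes of the 9 was at least 2-fold different between 24 h and sham, where 3.76% of all measured genes were in WT and 4.32% in KO. From 24 h to 72 h, 1 of 6 (Il6) was that much higher and 2 (Il6ra and Lifr) that much lower in WT, beside 8.95% and 21.7% of all genes. In KO 1 of 6 (Socs3) was higher and 3 (Osmr, Lifr and Il6st) lower, beside 10.2% and 13.6%. The Socs3 ratio turned to -0.019 with the coarser clustering, in which the unnamed Cxcl5 and Ptx3 cells joined the fibroblasts. Between genotypes at 72 h, 2 of 6 (Il6ra and Lifr) were at least 2-fold higher and 1 (Il6) lower in KO, beside 9.27% and 3.66% of all genes. Macrophages also express Il6ra and Lifr, and the monocyte/macrophage markers in fibroblasts stood at 3725 CPM in WT and 19662 CPM in KO. The part of macrophage RNA in these ratios was not tested. Without the clusters that come mostly from the KO library at 72 h, the 72 h over 24 h log2 ratios turned to 0.11 for Il6st in WT, and in KO to 0.12 for Il6st and 0.36 for Osmr. That left 45 WT and 29 KO fibroblasts at 72 h, under the 100 cells a ratio otherwise needs here.

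Socs3, the feedback inhibitor that STAT3 induces, lay mostly in leukocytes (79.0% of 31817 UMIs). Neutrophils had 567, 498, 586, 527, 592 and 459 CPM with no library standing apart, and 24 h over sham was 0.05 (-0.05 to 0.15) in WT and 0.08 (-0.03 to 0.19) in KO. Within neutrophils it was higher in the Tnf and Ccrl2 cluster, at 654, 589, 685, 569, 826 and 637 CPM, than in the Retnlg cluster, at 416, 366, 453, 484, 391 and 272 CPM. Monocyte/macrophage cells had 144, 125, 303, 264, 111 and 119 CPM. Both 24 h libraries stood above the other 4, and 24 h over sham was 1.07 (0.98 to 1.16) in WT and 1.08 (0.98 to 1.18) in KO. Its 24 h ratios in WT and KO nearly coincided in this class, where those of Il6 and Lif had opposite signs.

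The Plac8 monocytes had the most Socs3 of the class, at 249, 245, 575, 465, 191 and 195 CPM, and the resident-like Lyve1 cluster 51.5, 60.5, 174, 110.3, 82.6 and 91.1 CPM. Among the stromal classes, Socs3 was 35.3, 29.8, 54.7, 64.6, 35.8 and 62.7 CPM in endothelial cells and 35.03, 27.0, 57.4, 44.4, 62.1 and 90.6 CPM in fibroblasts. In both classes each 24 h library was above the sham library of its genotype, with log2 ratios of 0.63 (0.36 to 0.90) in WT and 1.12 (0.84 to 1.39) in KO endothelial cells and of 0.71 (0.29 to 1.13) and 0.71 (0.19 to 1.22) in fibroblasts. Neutrophil RNA in the S100a8 and S100a9 ratio would bring 21.3 of the 155 Socs3 UMIs in KO endothelial cells at 24 h, and 4.34 of the 176 in WT. At 72 h in KO it would bring 34.8 of the 73, with the monocyte/macrophage markers at 7782 CPM in the same cells. T/NK cells had 43.0, 39.9, 144, 186, 127 and 58.5 CPM, highest in the 24 h libraries, from between 20 and 163 cells.

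Set against each other within a library, leukocytes (neutrophils, monocyte/macrophage, B and T/NK cells) and stromal cells differed for most of the 9 genes. Osm, Il6ra and Socs3 were higher in leukocytes in 6 of 6 libraries, by 3.42-fold to 279-fold, 2.83-fold to 17.4-fold and 1.76-fold to 6.37-fold. Osmr and Il6st were higher in stroma in 6 of 6, by 32.1-fold to 698-fold and 3.46-fold to 7.66-fold. Lifr was higher in stroma beyond counting error in 5 of 6, by 1.18-fold to 3.51-fold over all 6. Among all measured genes, 13.6%, 13.9%, 14.1%, 15.2%, 15.8% and 9.28% were at least 2-fold higher in leukocytes in the 6 libraries and 35.5%, 33.2%, 36.8%, 37.3%, 27% and 20.3% at least 2-fold lower, so both directions are common and the genes were picked with this pattern in view. For Osm the smallest fold was in the KO library at 72 h, the one with the highest sums of neutrophil and of monocyte/macrophage markers in its fibroblasts and endothelial cells.

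Il6 and Lif changed sides with time. The log2 ratio of leukocytes over stroma was 2.42, 1.49, 1.25, -0.95, -4.75 and -3.26 for Il6 and 3.08, 2.02, 0.97, 0.60, -3.09 and -2.13 for Lif. The Lif ratios rest on 7 to 78 leukocyte and 5 to 19 stromal UMIs a library, below 50 in all at sham in WT and at 72 h. At sham and in WT at 24 h both ligands were higher in leukocytes, and at 72 h both were higher in stroma in both genotypes. The 24 h values in WT depend on where the Cxcl5 and Ptx3 cells are counted: as fibroblasts, under the coarser clustering, they turned the ratio to -0.24 for Il6 and -0.61 for Lif. Il11 was higher in stroma beyond counting error in 5 of 6 libraries, from 0 to 4 leukocyte and 1 to 52 stromal UMIs a library.

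**Figure D4:**
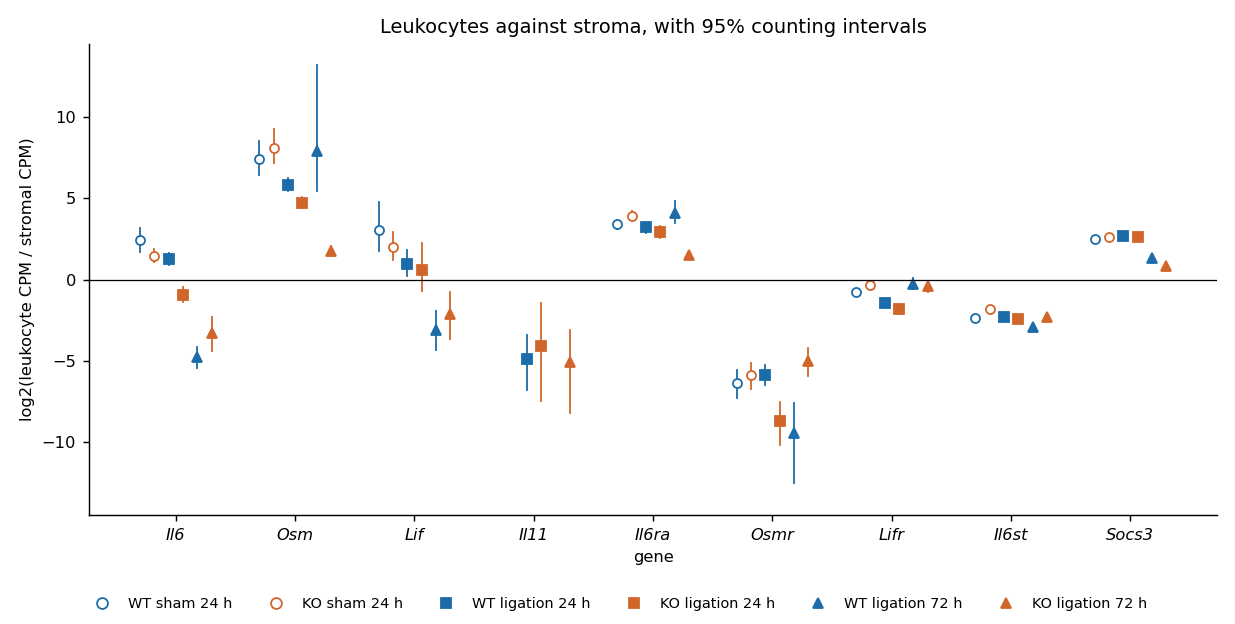
Log2 ratio of the leukocyte CPM over the stromal CPM for each gene, with 1 point per library and 95% counting intervals as vertical lines; blue is WT, orange KO, open circles sham, squares ligation 24 h and triangles ligation 72 h, and libraries with no leukocyte UMI have no point. Osm, Il6ra and Socs3 lie above 0 and Osmr and Il6st below 0 in all 6 libraries, while Il6 in WT lies at 2.42 and -4.75 at sham and at 72 h.

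Across the 35 points formed by a class in a library with at least 100 cells, Osm ran with Socs3 (Pearson's r of log2(CPM + 1) of 0.92) and Il6ra (0.86), Osmr with Il6st (0.81), and Lifr with Il6st (0.80), while Osm and Osmr ran against each other (-0.76). Il6 ran with Lif at 0.59 and with Il11 at 0.57. The points of a library share depth and free RNA, and the points of a class share a cell type, so these values describe the table only. The genes outside the pathway most like each one were, for Osm, Wfdc21 (r = 0.97), Cd14 (0.96) and Plek (0.96); Cd14 is a monocyte surface receptor for bacterial lipopolysaccharide. For Socs3 they were Rhog (r = 0.95), Csf2rb (0.95) and Rap2c (0.94), and for Il6ra Csf2rb (r = 0.92), Apbb1ip (0.92) and Arap1 (0.92). For Osmr they were Fkbp9 (r = 0.97), Npdc1 (0.97) and Nfib (0.97), for Il6st Fut11 (r = 0.93), Aida (0.93) and Lamc1 (0.93), and for Lifr Dock1 (r = 0.93), Psd3 (0.92) and Tanc2 (0.92). For Il6 they were Fosl1 (r = 0.74), Arf1 (0.72) and Bzw1 (0.70), of which Fosl1 encodes an AP-1 subunit. For Il11 they were Tubb3 (r = 0.66), Cxcl5 (0.63) and Steap1 (0.60), at the lowest likeness of the 8 genes compared, and Lif had too few UMIs for the comparison.

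The rest of the pathway was read from a list of 37 genes. It held 10 other family cytokines and receptors, 12 transducers and shedding enzymes, and 15 genes listed here as STAT3-responsive. Whether STAT3 or another signal lay behind a change in these 15 genes was not tested. The lists were chosen with earlier results of these data known, so the counts below are a description and no independent support. At 24 h over sham in endothelial cells, 10 of 15 measured STAT3-responsive genes in WT and 10 of 14 in KO were at least 2-fold higher and none lower, beside 3.62% and 3.78% of all genes. The list's median log2 ratios were 1.27 and 1.43 against 0.03 and 0.02 over all measured genes. In WT endothelial cells Cxcl1, a neutrophil-attracting chemokine, went from 6.36 to 46.3 CPM (log2 ratio 2.86) and Lcn2, an iron-binding acute-phase protein, from 16.3 to 118 CPM (log2 ratio 2.85). Timp1, an inhibitor of matrix proteases, had a log2 ratio of 2.30, and the metallothionein gene Mt2 one of 2.28. In KO endothelial cells the furthest of this list were Hp, which encodes haptoglobin, from 3.85 to 40.9 CPM (log2 ratio 3.41), Saa3 at 2.32 and Serpina3n at 2.22. The phosphatase gene Ptpn6, which belongs to the transducer list, had 2.57. Hp, Lcn2 and Ptpn6 are also expressed by neutrophils, whose 12 markers summed in endothelial cells to 389.9, 229.8, 374 and 3030.4 CPM in the sham and 24 h libraries, and the part of neutrophil RNA in these values was not tested.

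In fibroblasts 4 of 14 measured STAT3-responsive genes in WT and 5 of 14 in KO were at least 2-fold higher at 24 h and none lower, beside 2.01% and 1.01% of all genes. The medians were 0.78 and 0.59 against 0.02 and -0.03 over all genes. Mt2 went from 315 to 1077 CPM (log2 ratio 1.77) in WT and had a log2 ratio of 1.91 in KO, and the monocyte chemokine gene Ccl2 had 1.76 and 1.97. Bcl3 and Cebpb, transcriptional regulators, followed in WT at 1.28 and 1.19, and the kinase gene Pim1 and Timp1 in KO at 1.67 and 1.34.

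In monocyte/macrophage cells 4 of 14 in WT and 1 of 14 in KO were at least 2-fold higher at 24 h, beside 2.69% and 1.70% of all genes. The medians were 0.64 and 0.42 against -0.11 and -0.27. In WT Cxcl1 had a log2 ratio of 2.32 and Lcn2 2.27, and in KO Lcn2 had 1.92. In neutrophils none of 12 in WT was higher and 2 were lower (Cxcl1 at -1.06 and Saa3 at -1.03), whereas in KO 2 of 14 were higher (Ccl2 at 1.46 and Lcn2 at 1.29). Of all genes in neutrophils, 8.40% were that much lower in WT and 2.75% higher in KO. The neutrophil medians were 0.15 and 0.16 against -0.23 and -0.19. The 33 monocyte/macrophage markers summed in neutrophils to 3055, 2740, 3884 and 6478 CPM in the sham and 24 h libraries. Ccl2 stood at 73.4 CPM in KO neutrophils of 24 h and at 5312 CPM in that library's monocyte/macrophage cells. The part of their RNA in the neutrophil Ccl2 was not tested.

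**Figure D5:**
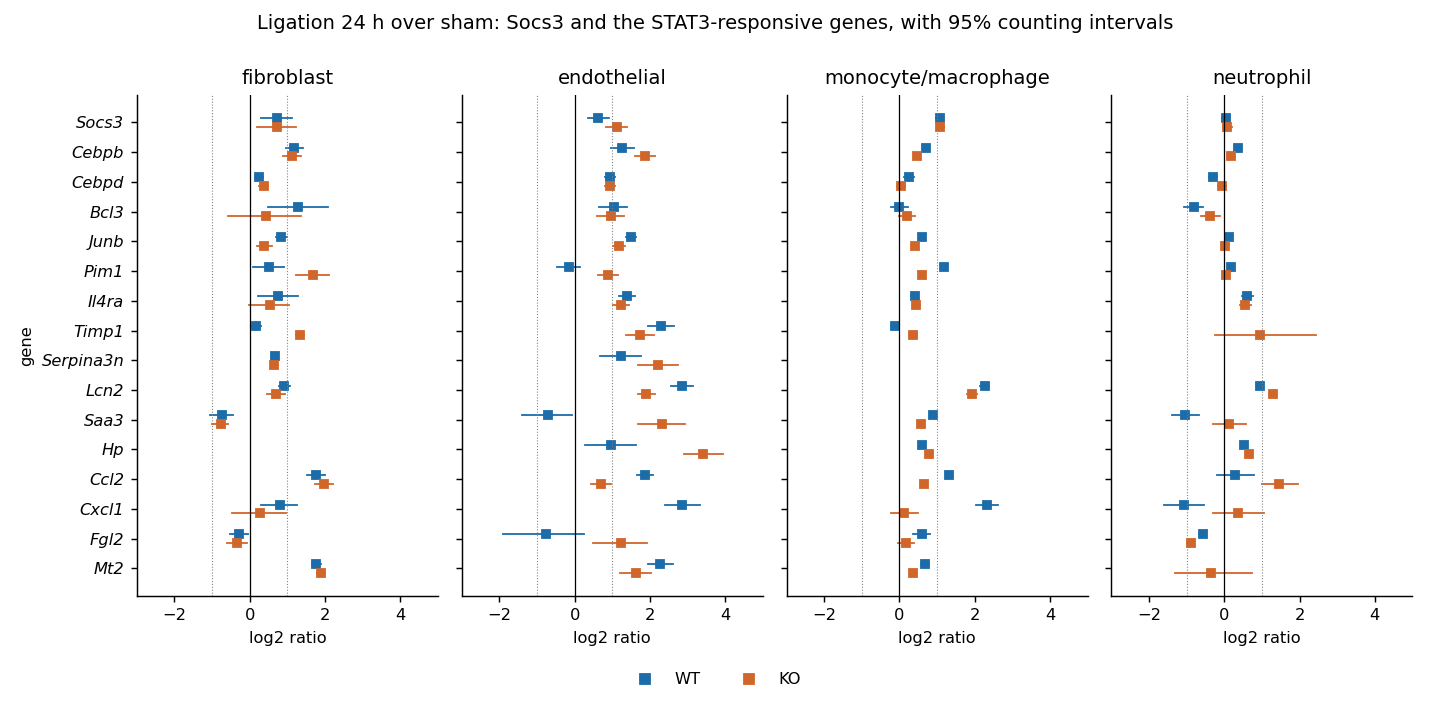
Log2 ratio of ligation 24 h over sham for Socs3 and the 15 STAT3-responsive genes in the 4 main classes, WT in blue and KO in orange, with 95% counting intervals as horizontal lines, dotted lines at 2-fold, and only genes with at least 50 UMIs over the pair. In endothelial cells 10 of 15 WT points and 10 of 14 KO points of the list lie at or beyond 2-fold higher, more than in the other 3 classes, where at most 5 do.

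Of the 12 transducers, most were measured and few reached 2-fold at 24 h. In leukocytes the exceptions were the feedback inhibitor genes Socs1 and Cish, which were the 2 higher of 12 in monocyte/macrophage cells and of 12 in neutrophils, in both genotypes, with none lower. Of all genes, 2.69% (WT) and 1.70% (KO) reached this in the monocyte/macrophage class, and 5.07% and 2.75% in neutrophils. In neutrophils Cish went from 13.6 to 243 CPM (log2 ratio 4.16) in WT and from 26.7 to 107 CPM (log2 ratio 2.005) in KO, and Socs1 from 7.52 to 67.2 CPM (log2 ratio 3.16) in WT with a log2 ratio of 2.12 in KO. Cish in monocyte/macrophage cells went from 2.22 to 29.4 CPM (log2 ratio 3.73) in WT, with 1.30 in KO, and Socs1 had 2.20 and 1.16. Neutrophils thus had higher Cish and Socs1 at 24 h while their Socs3 differed little. Cish is known as a target of STAT5. In endothelial cells none of 11 in WT and 1 of 12 in KO (Ptpn6) were 2-fold higher, and in fibroblasts none of 9 and none of 10, beside 3.62% and 3.78% of all genes in endothelial cells and 2.01% and 1.01% in fibroblasts. Of the 10 other family genes, 1 of 3 measured in WT and 1 of 3 in KO were 2-fold higher in monocyte/macrophage cells, beside the same shares of all genes as above. In KO this was Clcf1, a ligand of the ciliary neurotrophic factor receptor, at 1.20.

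From 24 h to 72 h the STAT3-responsive list was lower again in monocyte/macrophage cells, where 10 of 14 in WT and 8 of 14 in KO were at least 2-fold lower and none higher, with medians of -1.71 and -1.15 (all genes -0.04 and 0.11), beside 8.05% and 3.02% of all genes lower. The furthest in WT were Lcn2 at -5.51 and Cxcl1 at -4.60. In neutrophils 4 of 12 in WT and 3 of 14 in KO were lower and 1 and none higher, beside 6.89% and 5.66% of all genes lower and 32.5% and 29.3% higher. The transducer gene Cish had a KO log2 ratio of -6.54 (-11.85 to -4.06) there, from 1 UMI in the 433 neutrophils of 72 h. In endothelial cells 7 of 13 in WT were lower and 1 higher (median -1.34), against 3 of 14 lower and 2 higher in KO (median 0.38). Of all genes there, 8.47% were lower and 3.18% higher in WT, and 6.59% and 4.24% in KO. In fibroblasts 6 of 15 in WT were lower and 3 higher, and 5 and 3 of 15 in KO, beside 21.7% and 8.95% of all genes in WT and 13.6% and 10.2% in KO. The KO endothelial and fibroblast values at 72 h stand beside the neutrophil and monocyte/macrophage markers and the single-library cluster given above, whose part was not tested.

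Between genotypes at 24 h, genes of the 3 lists were at least 2-fold different in both directions. Of all measured genes, 2.41% in endothelial cells, 2.85% in fibroblasts and 3.24% in neutrophils differed that much either way. In monocyte/macrophage cells 1.55% were that much lower in KO. In monocyte/macrophage cells Cxcl1 had a KO over WT log2 ratio of -2.12 and Cish -1.01. Cxcl1 was also lower in KO endothelial cells, at -3.47, as was Ccl2 at -1.12, whereas Hp and Saa3 were higher there, at 1.95 and 1.27. The 12 neutrophil markers summed to 3030.4 CPM in these KO cells and 374 in WT, and their part in Hp was not tested. In neutrophils Cish was lower, at -1.18, and Ccl2 higher, at 1.34. The 33 monocyte/macrophage markers summed to 6478 CPM in these KO neutrophils and 3884 in WT, and their part in Ccl2 was not tested. In fibroblasts Saa3 and Timp1 were higher, at 1.35 and 1.04, and Lcn2 and Cxcl1 lower, at -1.29 and -1.09. At sham, Saa3 and Cxcl1 were lower in KO endothelial cells, at -1.76 and -1.27. KO fibroblasts at sham had higher Saa3 (1.38) and lower Lcn2 (-1.06). Cish (1.42) and Socs1 (1.11) were higher in KO monocyte/macrophage cells at sham, and Ptpn11 and Cxcl1 were lower in KO neutrophils, both at -1.04. Each of these compares 1 library of 4 pooled mice with another, and the spread between such pools is unknown.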

How the data were processed

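The authors deposited raw UMI counts per gene and cell for 6 libraries (1 per group, 4 mice pooled), made with Cell Ranger 6.0.0 and the build mm10 per the submitters' processing notes; the annotation and later filters are not given in the sources used here. Library totals ran from 20995280 to 45649061 UMIs, every deposited cell had at least 500, and the counts were used as deposited. Free RNA was not removed. Positions came from GENCODE M21, upstream sequences from RefSeq.

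Cells with under 200 genes or over 20% mitochondrial UMIs were left out. Scrublet's own threshold marked 0 to 50 cells a library, which has not worked, so the highest scores were removed at 0.8% per 1000 deposited cells (105 to 425). Without the 9 genes and the pathway list, the 2000 most variable genes gave 30 principal components, 20 neighbours and Leiden clusters at resolution 1 (scanpy 1.11.5, igraph 0.11.9, Python 3.11.15), with no correction between libraries. Clusters were named from fixed markers among their leading genes; a marker had to be 1.5-fold enriched, a value set after seeing the data. The names are rebuilt, not the authors'. Leukocytes do not include the unnamed Cd209a cluster.

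UMIs were summed per class and library and scaled to CPM. Ratios between libraries in a class need 100 cells in both libraries and 50 UMIs over the pair; leukocyte over stroma ratios and values for clusters have no minimum. All have exact conditional Poisson intervals (scipy 1.17.1) of 95%; exact binomial intervals were computed for shares of cells. No test was made. The ratio step was tested on simulated counts. Of the 37 list genes, those at least 2-fold different in a class are named, at most the 4 furthest. This holds for 24 h over sham and for KO over WT at sham and 24 h. For 72 h over 24 h only some are named, and for KO over WT at 72 h none. Of the genes most like a member, the 3 closest are named. The 9 genes, the lists and the tests were chosen with earlier results of these data known. Alternatives were Leiden resolutions of 0.5 and 2, no doublet removal, the 9 genes and list among the clustering genes, at most 10% mitochondrial UMIs, at least 1500 UMIs per cell, means over cells, scaling to the median gene, minimums of 10 UMIs or none, thinning to 1000 UMIs, and, chosen after seeing the data, leaving out clusters with at least 80% of their cells from 1 library.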

Additional observations from a re-analysis of the deposited data

Results flagged for a closer look

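For 4 results in monocyte/macrophage cells, the WT and KO ratios had opposite signs; the differences between them were not tested, since each ratio rests on 1 library per group. The log2 ratio of ligation 24 h over sham was 2.30 in WT and -0.48 in KO for Il6, 1.24 in WT and -1.12 in KO for Lif, and 0.37 in WT and -0.22 in KO for Il6st. The log2 ratio of ligation 72 h over 24 h for Il6ra was -0.55 in WT and 0.23 in KO. The median gene of the class moved by -0.11 in WT and -0.27 in KO from sham to 24 h.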

How the results depend on the processing

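No paired analysis was made, because each group has 1 library and the results come from no test. No replicate could be left out. Most changes of sign concern the 183 cells led by Cxcl5 and Ptx3, which 4 settings place among fibroblasts (1 cell excepted in the last): resolution 0.5, no doublet removal, the 9 genes among the clustering genes, and at most 10% mitochondrial UMIs. In that order, the log2 ratio of leukocytes over stroma in WT at 24 h turned from 1.25 to -0.24, -0.19, -0.25 and -0.27 for Il6 and from 0.97 to -0.61, -0.51, -0.60 and -0.63 for Lif. In fibroblasts, Il6 at 72 h over 24 h in WT turned from 3.19 to -0.63, -0.60, -0.63 and -0.63, Socs3 at 72 h over 24 h in KO from 1.03 to -0.019, -0.11, -0.028 and -0.017, and Il6ra at 24 h over sham in KO from 0.61 to -0.20, -0.18, -0.29 and -0.33. Without the clusters mostly of 1 library, an alternative chosen after seeing the data, Il6st in fibroblasts at 72 h over 24 h turned to 0.11 in WT and 0.12 in KO, Osmr in KO to 0.36, and KO over WT at 72 h to 0.65 for Osmr and 0.068 for Il6st. That alternative leaves 45 WT and 29 KO fibroblasts at 72 h, under the minimum of 100 cells.

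In endothelial cells, Il6ra at 24 h over sham in KO turned to -0.093 with at most 10% mitochondrial UMIs, Lifr at 72 h over 24 h in WT to 0.17 as a mean over cells, and Osm at 72 h over 24 h in KO to -0.61 without doublet removal and -0.36 with at least 1500 UMIs per cell. At 24 h over sham, endothelial Il6st in WT moved to -0.31 at 10% mitochondrial UMIs and -0.16 as a mean over cells, and Socs3 to 0.33 in WT at 10% mitochondrial UMIs and 1.58 in KO without doublet removal. Scaling to the median gene gave 0.28 in WT and 0.27 in KO for neutrophil Socs3, 2.44 and 1.69 for neutrophil Osm, 0.96 for monocyte/macrophage Osm in KO, and 0.048, a change of sign, for Il6st there. Means over cells gave Osm ratios of 2.36 in WT neutrophils, and of 1.85 (WT) and 0.89 (KO) for monocyte/macrophage cells. The cause of these moves was not tested. At resolution 2, 184 of 186 values stayed within their counting intervals, and with at least 1500 UMIs per cell 181 of 186 did. All 24 shares of cells moved with thinning, which lowers each by construction. Il6, Lif and Il11 had the fewest UMIs of the 9 genes (1525, 409 and 568 in all), and the width of their intervals follows from these counts.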
